A study of Mus musculus with 7 samples.

Results

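The genes described here lie between 20 and 60 Mb of the mouse X chromosome (mm10), the part from Chst7 to Fgf13. A gene was a member if it stood in the allelic ratio table of at least 1 of the 2 lines and its smallest annotated start fell from 20 Mb to under 60 Mb. The 8 genes Uba1, Usp11, Timp1, Klhl13, Cul4b, Utp14a, Phf6 and Hprt of the interval were left out by the rule. This gave 67 members of the 410 genes in either table, of which 64 are in both tables and Gm6938, Mcts1 and Tenm1 are in that of iXist-ChrX-Dom only. The annotation gives 62 members as protein coding and 5 as noncoding. All members lie centromeric of Xist, at 43.9 to 83.4 Mb from it.

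Chromatin-associated RNA (ChrRNA-seq, which samples RNA still attached to chromatin and so is rich in unspliced transcripts) was sequenced from female mouse embryonic stem cells, hybrids of Dom/129S (Mus musculus domesticus) and Cast (Mus musculus castaneus). In iXist-ChrX-Dom (the Dom line) a TetOn promoter replaces the Xist promoter on the Dom X chromosome (n = 4 samples), and in iXist-ChrX-Cast (the Cast line) on the Cast X chromosome (n = 3). All 7 samples had received 1 µg/mL doxycycline for 10 days and were kept undifferentiated, and no uninduced sample was analysed here. Xi stands for the chromosome that carries inducible Xist, and Xa for its active partner, so Xi is Dom in one line and Cast in the other, and line and strain of Xi cannot be told apart in a comparison of ratios. Each line goes back to a single engineered clone, the promoter is not that of natural X inactivation, and the cells had been grown on feeder fibroblasts that were removed by pre-plating. For replicates 3 and 4 of the Dom line the description field reads d1, against the 10 days of their titles, treatment fields and count file names. Their values are included: without them the median ratio of members in the Dom line was 0.133 (0.145 with them), the ratio differed between the lines in 13 members (16 with them) and the total level in 0 (3 with them). Over all genes tested, the ratio differed in 26% without them (33.2% with them) and the total level in 0.378% (2.92% with them). The names of the Cast line replicate 1 and 2 files carry a clone name that differs by 1 character from the labels.

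Xist is a long noncoding RNA that coats the chromosome it is transcribed from and brings about the silencing of most genes along it. In female mammals this equalises X-linked gene dosage with males. Genes on the same chromosome differ in how fast and how far they are silenced, and some, known as escape genes, keep a transcribed copy on Xi. In a hybrid cell, a base that differs between the strains tells which chromosome a fragment came from. The allelic ratio is the share of such fragments that came from Xi: a ratio of 0 means that no transcript came from Xi, and 0.5 that both copies gave the same amount.

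Xist itself had 5315 to 7040 CPM (counts scaled to a common library size) in the 7 libraries. Xi gave 99.9% of its allelic fragments in each Dom line sample and 94.0% to 94.7% in the Cast line samples. Libraries held 14877384 to 24309806 counted fragments, 44.2% to 46.4% of them allelic, and the median member was covered by 129 to 185 allelic fragments in a library. Of 9 stem cell markers, 8 were detected, with a summed level of 1377 to 1711 CPM in the Dom line and 1654 to 1790 CPM in the Cast line, while Sox2 was listed at 0. The 6 neural markers summed to 86.9 to 123.6 and 73.5 to 96.2 CPM, with Vim the highest and Sox1 at 0. A count of 0 need not mean that no transcript was there, because fragments that overlap more than 1 gene were skipped in counting. The 7 feeder fibroblast markers summed to 21.9 to 34.9 and 24.8 to 32.2 CPM, and the 5 primitive endoderm markers to 13.04 to 25.4 and 21.6 to 26.8 CPM. The part of these other cells in the results was not tested.

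Sequence in front of 3 members described below is shown. These are Slc25a5 (highest ratio), Wdr44 (passed the test on neither allele) and Rbmx2 (6th largest difference among members higher in the Dom line). Each sequence is the 250 bases before the RefSeq start on GRCm38.p6, plus strand, 5′ to 3′. Capitals mark matches on either strand to 3 short motifs, AANATGGC (YY1), CCGGAAG (ETS factors) and GGGCGG (the GC box).
Slc25a5, chrX:36795347-36795596: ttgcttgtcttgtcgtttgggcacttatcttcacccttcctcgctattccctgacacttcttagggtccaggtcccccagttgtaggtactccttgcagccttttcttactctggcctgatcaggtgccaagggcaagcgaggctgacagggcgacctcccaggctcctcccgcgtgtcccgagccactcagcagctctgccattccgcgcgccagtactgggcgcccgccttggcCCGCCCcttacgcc
Wdr44, chrX:23692801-23693050: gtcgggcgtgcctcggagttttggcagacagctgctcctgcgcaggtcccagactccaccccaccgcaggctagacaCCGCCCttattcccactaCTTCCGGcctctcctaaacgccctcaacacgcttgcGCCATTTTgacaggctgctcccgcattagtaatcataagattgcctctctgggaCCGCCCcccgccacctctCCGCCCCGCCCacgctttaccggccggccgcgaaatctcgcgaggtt
Rbmx2, chrX:48694754-48695003: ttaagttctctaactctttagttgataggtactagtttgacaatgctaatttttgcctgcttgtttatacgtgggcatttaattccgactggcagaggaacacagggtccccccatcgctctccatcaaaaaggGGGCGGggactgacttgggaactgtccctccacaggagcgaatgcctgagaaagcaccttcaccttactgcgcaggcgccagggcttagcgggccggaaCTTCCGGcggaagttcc
The Wdr44 window holds all 3 motifs, with 4 GC boxes, the last 2 of which overlap. The Slc25a5 window holds 1 GC box, and that of Rbmx2 1 GC box and 1 ETS match. Windows were found for 59 of the 67 members. Of these, 5 held the YY1 motif, 4 the ETS motif and 36 the GC box, which is 8.47%, 6.78% and 61.0%, against 3.91%, 6.91% and 32.7% of all 32851 windows of the same length. Windows were found for 15 of the members whose ratio differed between the lines. Of those 15, 0 held the YY1 motif, 1 (Rbmx2) the ETS motif and 9 the GC box. A link between motifs and ratios was not tested. CG dinucleotides numbered 14, 22 and 11 in the 3 windows, with a median of 10 over members and 6 over all windows. Members had to reach a minimum of allelic fragments, while the set of all windows was not selected by level. These comparisons therefore do not show a trait of the interval.

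Mean ratios were above 0.5 in 0 of 67 members in the Dom line and in 1 of 64 in the Cast line. They were under 0.1 in 19 and 31 members. Averaged over samples, 68.3% of members and 68.3% of all table genes had a ratio above 0.1 in the Dom line. In the Cast line it was 46.9% of members and 57.6% of all table genes. Over the 67 members of the Dom line, replicates 1 to 4 had median ratios of 0.141, 0.125, 0.146 and 0.167 (0.145 ± 0.0172, SD, n = 4). Over the 64 members in the Cast line it was 0.0926, 0.112 and 0.0862 in replicates 1 to 3 (0.0970 ± 0.0137, n = 3). The 2 lines did not overlap. In bulk samples, silencing in fewer cells and weaker silencing per cell cannot be told apart. The 179 other genes of the Dom line table had a median of 0.151 ± 0.0231, and in the Cast line the 174 other genes centromeric of Xist had 0.144 ± 0.0160. All 4 ratios were under 0.1 in 13 members of the Dom line, and all 3 in 24 members of the Cast line. Every ratio of both lines was under 0.1 in 11 of the 64 shared members, above 0.1 in 16 and above 0.2 in 4.

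**Figure D1:**
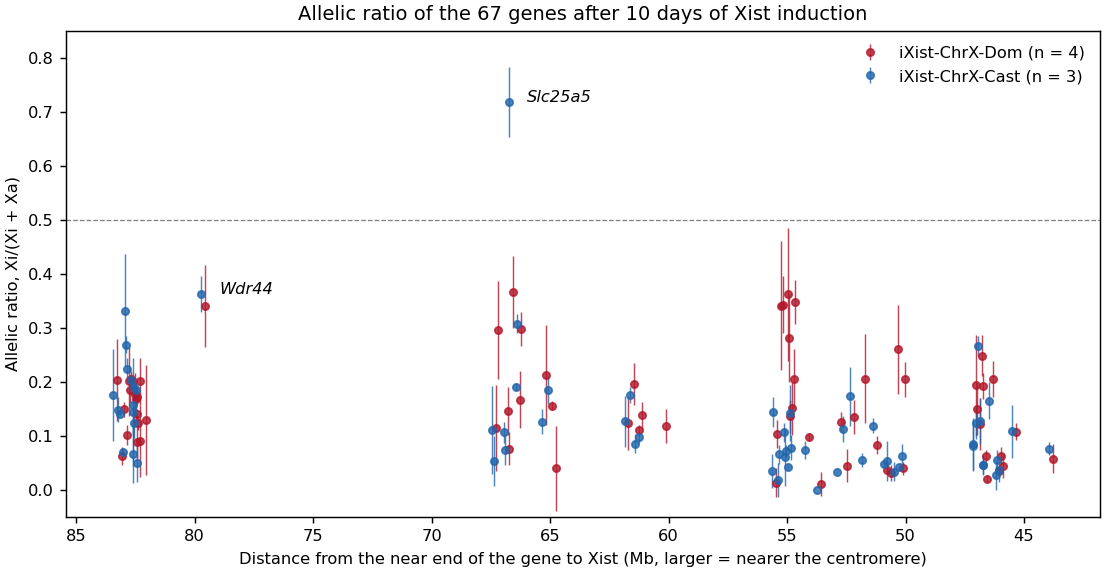
Allelic ratio of each member (mean ± SD over samples, 4 of the Dom line in red and 3 of the Cast line in blue) against the distance from the gene to Xist in Mb. Most means lie under 0.3, Slc25a5 is the only member with a mean above 0.5 (in the Cast line), and a run of red points in the middle of the interval lies above the blue ones.

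With boundaries at 30, 45 and 55 Mb, median ratios were lowest in the last 2 stretches of the interval, more clearly so in the Cast line. In the Dom line the median was 0.153 ± 0.0160 over the 17 members from 20 to 30 Mb, 0.154 ± 0.0195 over the 15 from 30 to 45 Mb, 0.130 ± 0.0205 over the 22 from 45 to 55 Mb and 0.103 ± 0.0210 over the 13 from 55 to 60 Mb. In the Cast line it was 0.178 ± 0.0177 (16 members), 0.128 ± 0.0129 (13), 0.0626 ± 0.0135 (22) and 0.0704 ± 0.00803 (13). The 2 lines thus overlapped in the first 2 stretches, while from 45 to 55 Mb the 4 Dom line samples (0.116 to 0.160) lay above the 3 Cast line samples (0.0511 to 0.0775). From 55 to 60 Mb they also did (0.0806 to 0.130 against 0.0611 to 0.0750). In equal blocks, with boundaries at 30, 40 and 50 Mb, the Dom line had 0.153, 0.177, 0.151 and 0.0997, so that only the last block was clearly lower. The Cast line had 0.178, 0.145, 0.0839 and 0.0625. Across members the ratio correlated positively with distance from Xist, with Spearman coefficients of 0.159 to 0.301 in the Dom line samples (67 genes) and 0.334 to 0.548 in the Cast line samples (64 genes). With CPM per kb of gene, the coefficient was 0.0182 to 0.0969 in the Dom line and 0.331 to 0.418 in the Cast line. With gene length it was -0.216 to -0.119 and -0.211 to -0.116. These correlations are across genes, which share library, depth and neighbours, and are given as descriptions.

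Both lines together allow each strain's allele to be compared with itself, on Xi in one line and on Xa in the other, so that a difference in how well the strains' reads map cancels. The Dom allele was lower on Xi in 65 of the 67 members (edgeR's quasi-likelihood test, adjusted p under 0.05), with a median over members of -2.77 on the log2 scale, a fold of 6.83. Over all 15074 genes tested, 3.74% were called in this direction, and over X-linked genes 84.2%. The Cast allele was also lower on Xi in 65 of the 67, with a median of -3.03 on the log2 scale (8.18-fold), against 6.97% called in this direction over all 15063 genes and 83.6% over X-linked genes. The same 65 members were called lower on Xi on both alleles. The remaining 2 were Slc25a5 and Wdr44. Because the other chromosome comes from the other line, these folds compare lines as well as states. Over autosomal genes the median log2 difference, the Dom line minus the Cast line, was 0.02 for Dom-assigned and 0.01 for Cast-assigned fragments.

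**Figure D2:**
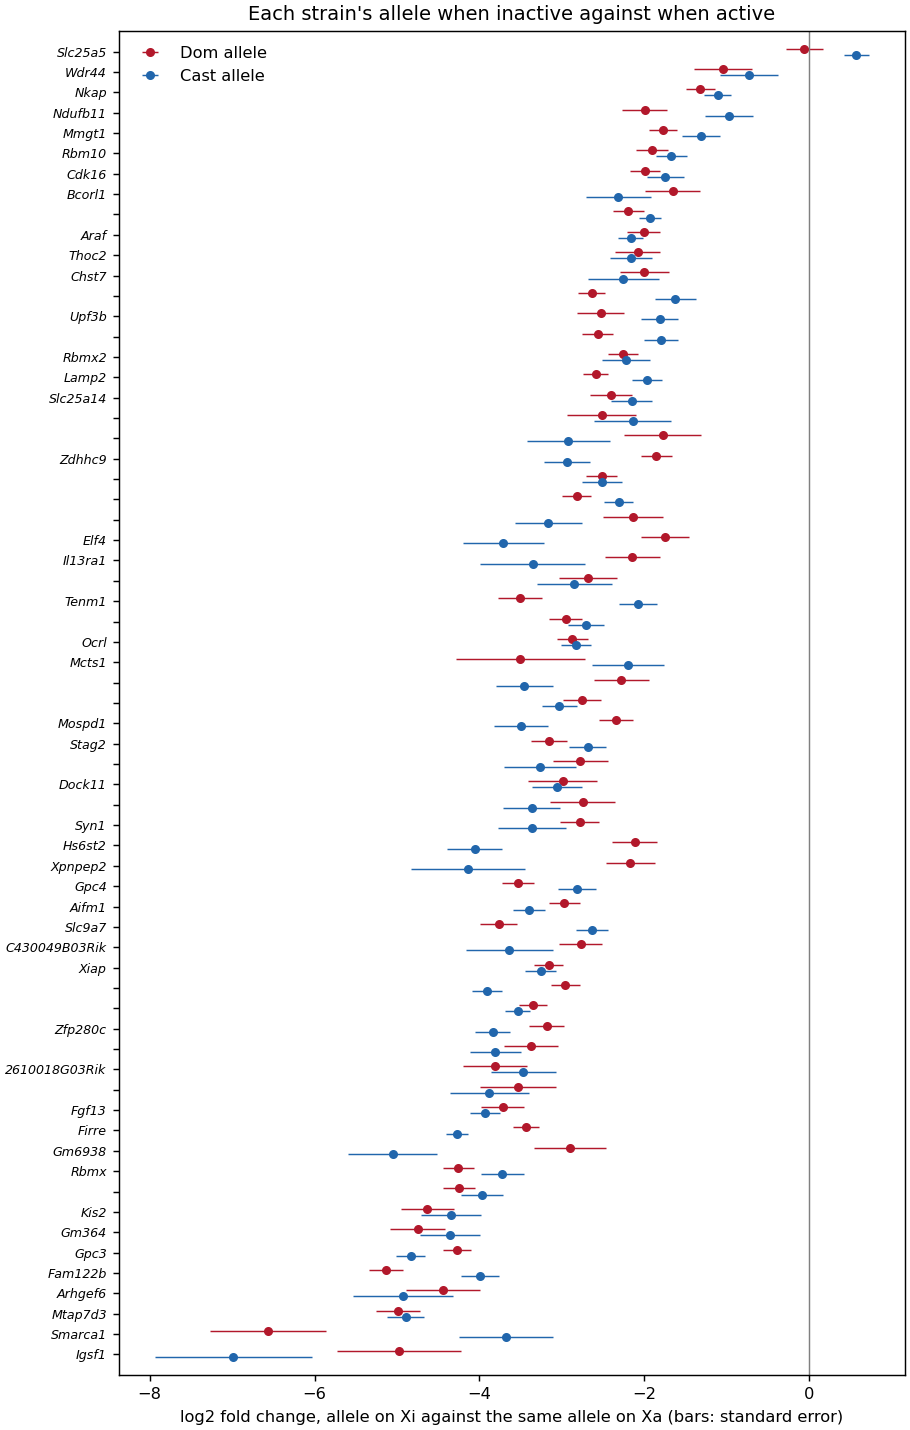
Fitted log2 fold change of 65 of the 67 members, with names for those described in the text, for the Dom allele (red) and the Cast allele (blue), on Xi against on Xa, with standard errors from edgeR, sorted by the mean of both. All points but the Cast allele of Slc25a5 lie under 0, and the values of Igsf1 and Smarca1 at the bottom rest on 0 or 1 fragment from Xi in a line.

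Slc25a5 (chrX:36795651-36798806, plus strand) encodes ANT2, an ADP/ATP carrier of the inner mitochondrial membrane. Its ratio was 0.395, 0.445, 0.300 and 0.325 in the Dom line and 0.794, 0.687 and 0.677 in the Cast line, from 375 to 483 and 301 to 566 allelic fragments. Xi thus gave the smaller share in every Dom line sample and the larger share in every Cast line sample, and the Cast copy the larger share in all 7. The Dom allele had 6.53, 8.73, 6.02 and 6.22 CPM on Xi and 4.36, 9.02 and 7.96 CPM on Xa. These values overlapped, and the log2 fold change was -0.06 ± 0.22 (SE, adjusted p = 0.946, edgeR). The sign turned without Cast line replicate 2 (0.15) or 3 (0.02). The Cast allele had 16.8, 19.8 and 16.7 CPM on Xi and 9.99, 10.9, 14.1 and 12.9 CPM on Xa, without overlap. A Cast allele higher on Xi was called in 5.12% of all genes. That of Slc25a5 was 1.49-fold higher on Xi (log2 0.57 ± 0.15, adjusted p = 0.0198, edgeR), which was lost without Dom line replicate 1 (adjusted p = 0.0600), without its replicate 2 (0.0587) and without Cast line replicate 2 (0.137). Only 16.6% to 25.03% of the gene's fragments were allelic, and processed copies of this gene exist elsewhere in the genome, so that the counting could have split or lost reads.

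Wdr44 (chrX:23693116-23806001), which encodes a WD repeat protein that binds the small GTPase RAB11, lies alone, with 12.1 Mb between its end and the next member, Dock11. Its ratio was 0.327, 0.269, 0.448 and 0.317 in the Dom line and 0.375, 0.324 and 0.387 in the Cast line. The lines overlapped. Only 0.719% to 1.48% of its fragments were allelic, 26 to 49 per library, although its total level was 137 to 182 CPM. On Xi the log2 fold change was -1.05 ± 0.35 for the Dom allele (adjusted p = 0.138, edgeR) and -0.73 ± 0.35 for the Cast allele (adjusted p = 0.253). With replicate number as a block, which leaves Dom line replicate 4 as a level of its own and so out of the comparison, the Dom allele was called (-1.15, adjusted p = 0.0211, edgeR). It was also called with sample set as covariate (0.0333) and with replicates 1 and 2 only (0.0382).

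Next came members that fell on both alleles but kept a high ratio. Nkap, a nuclear protein that acts in RNA splicing and as a transcriptional repressor in Notch signalling, had ratios of 0.264, 0.277, 0.329 and 0.321 in the Dom line and 0.319, 0.289 and 0.316 in the Cast line. The lines overlapped, and its Dom and Cast alleles were 2.50-fold and 2.15-fold lower on Xi (log2 -1.32 ± 0.18 and -1.11 ± 0.16, adjusted p = 0.000103 and 0.000266, edgeR). Mmgt1, a subunit of the membrane protein complex of the endoplasmic reticulum, had 0.243, 0.207, 0.244 and 0.299 against 0.285, 0.266 and 0.248, and was 3.41-fold and 2.49-fold lower. Ndufb11, a subunit of respiratory complex I, had 0.250, 0.109, 0.235 and 0.211 against 0.216, 0.417 and 0.364. Its samples spread widely, its Dom allele was 3.99-fold lower on Xi and its Cast allele 1.96-fold (adjusted p = 0.000157 and 0.0416, edgeR). The call of its Cast allele was lost without Dom line replicate 2, 3 or 4 (adjusted p 0.0784 to 0.111), without Cast line replicate 1 (0.159) and without both libraries described as d1 (0.151). Cdk16, a cyclin-dependent kinase, stood at 0.205 ± 0.0157 and 0.225 ± 0.0199. Another kinase of the same stretch, Araf of the RAF family, stood at 0.177 ± 0.0397 and 0.203 ± 0.0122.

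At the other end were members near silence in both lines. Gpc3, a glypican that carries heparan sulphate at the cell surface, was the best measured, with 2480 to 5624 allelic fragments per library. Its ratio was 0.0365, 0.0260, 0.0423 and 0.0384 in the Dom line and 0.0440, 0.0530 and 0.0437 in the Cast line. All Cast line samples were above all Dom line samples, but the difference was not called (log-odds -0.34 ± 0.19, adjusted p = 0.196, limma). Its Dom allele was 19.3-fold lower on Xi and its Cast allele 28.5-fold (adjusted p = 6.13e-11 and 4.75e-10, edgeR). Its neighbour Gpc4, of the same family, kept more, at 0.0834 ± 0.0168 and 0.119 ± 0.0146. Mtap7d3, a microtubule-associated protein gene, had the lowest Dom line mean among members with at least 30 allelic fragments in every sample of the line, 0.0205 ± 0.00684, and 0.0462 ± 0.0178 in the Cast line. Fam122b had 0.0396 ± 0.0121 and 0.0419 ± 0.00447, the noncoding Kis2 0.0311 ± 0.0148 and 0.0539 ± 0.0368, and Gm364 0.0434 ± 0.0222 and 0.0362 ± 0.0227. Arhgef6, a guanine nucleotide exchange factor, had 0.0346 ± 0.00881 and 0.0274 ± 0.0283.

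A few alleles had next to no fragments on Xi. Igsf1, an immunoglobulin superfamily membrane protein, had 0 Cast fragments on Xi of 30 allelic fragments over the 3 Cast line libraries, which allows a ratio of up to 0.100, and 68 Cast fragments on Xa. Taking 3 fragments over the line as the floor, its Cast allele was at least 14.2-fold lower on Xi. With the counting error of both counts, the lower end of the exact 95% interval was 11.3-fold. Smarca1, the chromatin remodeller SNF2L, had 1 Dom fragment on Xi over 4 libraries and 89 on Xa over 3, a ratio of 142 in level with an exact 95% interval of 24.8 to 5666. Gm6938 had 2 Cast fragments on Xi and 124 on Xa (38.9-fold, 10.5 to 325). These intervals cover counting error only.

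The ratio differed between the lines in 16 of the 64 shared members (25%, limma on the log-odds, adjusted p under 0.05), against 33.2% of all 235 shared genes. It was higher in the Dom line in 13 members (20.3%, against 19.1% of all shared genes) and lower in 3 (4.69%, against 14%). With the ratios corrected for the Cast share of autosomal genes, 23 members were called (35.9%, against 45.1% of all shared genes), 11 higher (17.2%, against 15.3%) and 12 lower (18.8%, against 29.8%). Of the 16 members, 9 kept their call under every alternative run, and 5 lost it when a single library was left out (Aifm1, Elf4, Il13ra1, Rbm10 and Syn1). Samples of the lines did not overlap in 21 members (32.8%), against 44.7% of all shared genes. The 13 members were not spread evenly. From 45 to 55 Mb, 11 of 22 were higher in the Dom line and 0 lower. From 20 to 30 Mb, 1 was higher and 2 lower of 16, from 30 to 45 Mb 1 was higher and 1 lower of 13, and from 55 to 60 Mb none of 13 was called. Of the 8 neighbouring members from Xpnpep2 to Rbmx2, a stretch of 602 kb picked out after the values were seen, 7 were called, all higher in the Dom line, and the 1 left, Slc25a14, had 0.206 ± 0.0544 against 0.142 ± 0.0522.

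**Figure D3:**
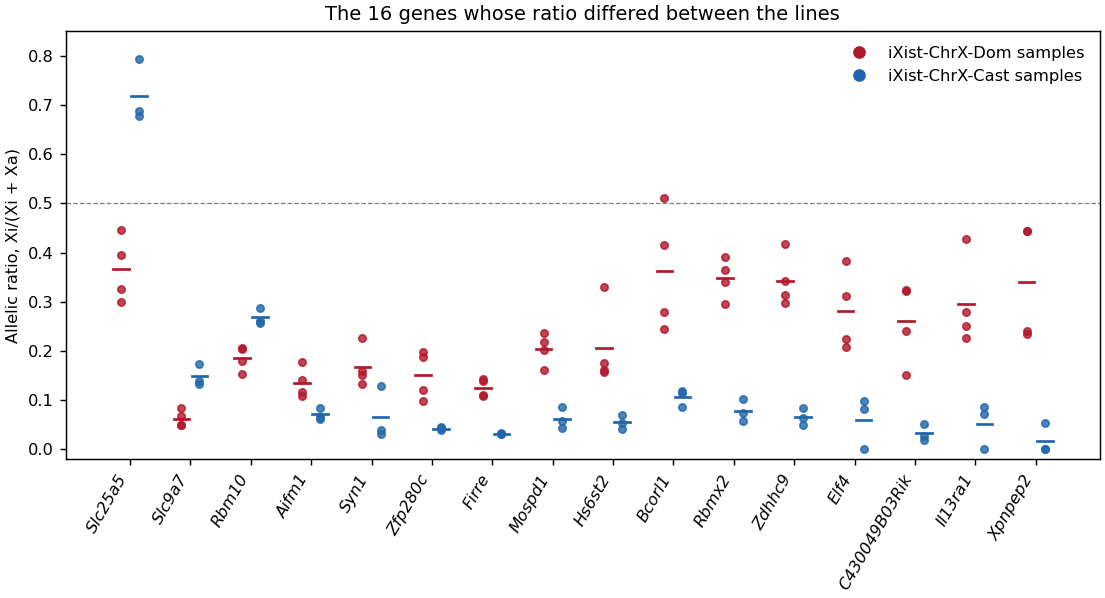
Allelic ratio in each sample of the 16 members whose ratio was called different between the lines, with the mean of each line as a bar, ordered by the log-odds difference. The Dom line samples (red) lie under the Cast line samples (blue) in Slc25a5, Slc9a7 and Rbm10 and above them in the other 13.

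Zdhhc9, a palmitoyltransferase that acts on Ras proteins, had ratios of 0.298, 0.343, 0.419 and 0.314 in the Dom line and 0.0839, 0.0632 and 0.0495 in the Cast line, from 129 to 204 allelic fragments. The lowest Dom line sample was well above the highest Cast line sample, and the log-odds differed by 2.75 ± 0.26 (adjusted p = 0.000248, limma). Rbmx2, a spliceosome protein, had 0.341, 0.296, 0.392 and 0.366 against 0.0735, 0.103 and 0.0581 (2.54 ± 0.25, adjusted p = 0.000257, limma). Both kept their call under every alternative. Xpnpep2, a membrane-bound aminopeptidase, showed the largest difference, 0.240, 0.235, 0.444 and 0.444 against 0, 0.0545 and 0 (4.76 ± 0.77, adjusted p = 0.00345, limma), but from 27 to 55 allelic fragments, only 3 of them from Xi in the Cast line. It was not called with replicates 1 and 2 only (adjusted p = 0.0735). Bcorl1, a transcriptional corepressor related to BCOR, had 0.415, 0.245, 0.511 and 0.279 against 0.114, 0.119 and 0.0854 (2.13 ± 0.42, adjusted p = 0.00716, limma). It was also not called with replicates 1 and 2 only (adjusted p = 0.0543). Elf4, an ETS transcription factor, had 0.384, 0.208, 0.224 and 0.312 against 0.0816, 0.0984 and 0 (3.00 ± 0.87, adjusted p = 0.0348, limma). Elf4 lost its call when any of the 4 Dom line libraries was left out, and in 8 of 17 alternatives in all (adjusted p 0.0555 to 0.125), among them the replicate block (0.0821) and a log-odds offset of 0.001 (0.0972).

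Firre, a nuclear long noncoding RNA that organises chromatin and whose locus carries many CTCF sites, had the most allelic fragments and the smallest standard error of the 16. Its ratio was 0.111, 0.108, 0.140 and 0.142 in the Dom line and 0.0313, 0.0342 and 0.0307 in the Cast line, from 2622 to 3781 allelic fragments (log-odds 1.82 ± 0.18, adjusted p = 0.000257, limma). The call was kept under every alternative. Hs6st2, a heparan sulphate sulphotransferase, had 0.157, 0.161, 0.176 and 0.330 against 0.0423, 0.0693 and 0.0546 (1.93 ± 0.37, adjusted p = 0.00698, limma). The noncoding C430049B03Rik, a host transcript of a microRNA cluster, had 0.152, 0.325, 0.241 and 0.323 against 0.02, 0.0282 and 0.0526 (3.03 ± 0.42, adjusted p = 0.00204, limma). Il13ra1, a subunit of the interleukin-13 receptor and the only called member of this direction between 30 and 45 Mb, had 0.280, 0.226, 0.429 and 0.250 against 0.0714, 0 and 0.0870. It rests on 14 to 31 allelic fragments, and it lost its call without Dom line replicate 1, 2 or 3 (adjusted p 0.0506 to 0.0599, limma), and in 6 of 16 alternatives in all (up to 0.114, without the libraries described as d1).

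The 3 members with a lower ratio in the Dom line were Slc25a5, described above (log-odds -2.14 ± 0.31, adjusted p = 0.00233, limma), Slc9a7 and Rbm10. Slc9a7, a sodium/proton exchanger of the Golgi, had 0.0496, 0.0503, 0.0837 and 0.0671 against 0.132, 0.139 and 0.175 (-1.28 ± 0.23, adjusted p = 0.00604, limma). Rbm10, a regulator of splicing, had 0.206, 0.154, 0.204 and 0.179 against 0.288, 0.262 and 0.258 (-0.67 ± 0.18, adjusted p = 0.0290, limma). Rbm10 was not called (adjusted p 0.0503 to 0.106, limma) without Dom line replicate 2 or 4, or without any of the 3 Cast line libraries. In all it lost its call in 9 of 17 alternatives, with the highest adjusted p, 0.121, under the replicate block.

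A ratio sets an allele on Xi beside the other strain's allele on Xa, so the levels behind it were examined. In all 13 members with a higher ratio in the Dom line, the mean level of the active Dom allele (in the Cast line) was above that of the active Cast allele (in the Dom line), without overlap of the samples in 8. On Xi, the Dom allele was above the Cast allele without overlap in 11, and in 6 members both held. A higher ratio in the Dom line by itself requires a Dom allele above the Cast allele on Xa, on Xi or on both. These counts thus follow in part from how the 13 members were chosen. Among the 6 was Rbmx2. Its active Dom allele had 8.86, 7.54 and 8.11 CPM and its active Cast allele 3.90, 3.57, 2.4 and 3.01 CPM, 2.54-fold apart. Its Dom allele on Xi had 2.02, 1.50, 1.55 and 1.73 CPM and its Cast allele on Xi 0.703, 0.866 and 0.501 CPM. Its Dom allele fell 4.78-fold and its Cast allele 4.67-fold. Zdhhc9 differed from this: its active alleles were 1.89-fold apart, and its Dom allele fell 3.62-fold and its Cast allele 7.65-fold. In Hs6st2 the active alleles were close (1.06-fold), while the Dom allele fell 4.34-fold (log2 -2.12 ± 0.27) and the Cast allele 16.6-fold (log2 -4.06 ± 0.33). Firre had 194, 184 and 183 CPM from the active Dom allele and 112, 119, 120 and 127 CPM from the active Cast allele, and fell 10.8-fold and 19.3-fold. The difference between the falls of the 2 alleles was not tested. Over the 64 shared members, the active Dom allele was above the active Cast allele without overlap in 16 and below it in 5. The same count over all shared genes is not given here. On autosomes, too, Dom-assigned fragments were in slight excess, with a median Cast share of 46.4% to 47.0% per library. This share, also used to correct the ratios, was taken over well-covered autosomal genes, with some autosomes left out.

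**Figure D4:**
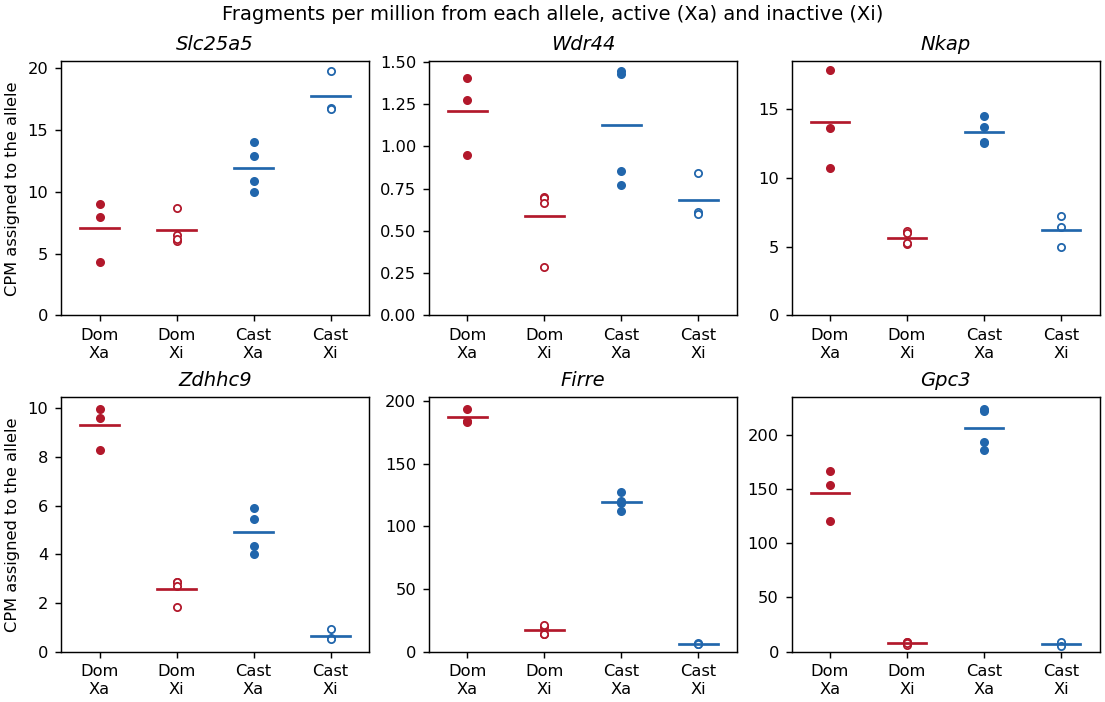
CPM assigned to the Dom allele (red) and the Cast allele (blue) of 6 members, on the active X (filled) and on Xi (open), each point a sample and each bar a mean. Gpc3 and Firre fall on both alleles almost to 0 on this scale, Nkap falls less on both, and in Slc25a5 the Cast allele is above the Dom allele in both states.

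The total level of members, both chromosomes together, passed the test of a difference between the lines in few cases. Of 67 members, 3 were called, or 4.48%, against 2.92% of all 15186 genes tested, and all 3 were lower in the Dom line, against 1.72% of all genes. The median over members was -0.13 on the log2 scale, beside -0.12 over X-linked genes and -0.00283 over all genes. C430049B03Rik had 5.65, 4.39, 4.53 and 3.82 CPM in the Dom line and 9.49, 9.47 and 9.46 CPM in the Cast line, without overlap (log2 -1.04 ± 0.17, adjusted p = 0.0174, edgeR). Fam122b had 61.4, 57.2, 50.5 and 49.1 CPM against 84.6, 84.1 and 69.0 CPM (-0.54 ± 0.12, adjusted p = 0.0459, edgeR). Samples of the lines did not overlap in 17 members (25.4%), against 16% of all genes. The count depends on single libraries. Without Dom line replicate 2, 3 or 4 or without Cast line replicate 1 or 2, 0 members were called (against 0.117% to 0.756% of all genes). Without Cast line replicate 3 it was 13 (19.4%, against 7.84% of all genes). It was 14 (20.9%, against 11.8%) with replicate number as a block, Dom line replicate 4 then being a level of its own, and 8 (11.9%, against 7.2%) with DESeq2. Of the 67 members, 22 had an unadjusted p under 0.05 (32.8%, edgeR), against 17.4% of all genes and 31.4% of X-linked genes.

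Grouped by what the genes do, the members for RNA processing and export and those for mitochondria had medians above that of all members in each of the 7 samples. Differences between such groups of genes were not tested. The 9 genes of RNA processing and export had a median of 0.182 ± 0.0195 in the Dom line and 0.170 ± 0.0167 in the Cast line, against 0.145 and 0.0970 over all members. Of these, 1 was called higher (Rbmx2) and 1 lower (Rbm10) in the Dom line. Nkap stood highest, and Rbmx, a spliceosomal RNA-binding protein, lowest, at 0.0620 ± 0.0168 and 0.0553 ± 0.0179. Upf3b of nonsense-mediated decay had 0.167 ± 0.0528 and 0.191 ± 0.00702, and Thoc2 of the mRNA export complex 0.196 ± 0.0391 and 0.176 ± 0.0149. The 4 mitochondrial genes had 0.208 ± 0.0494 and 0.237 ± 0.0701. Among them Slc25a5 was lower and Aifm1, a flavoprotein that can trigger cell death, higher in the Dom line (0.136 ± 0.0306 against 0.0711 ± 0.0118, adjusted p = 0.0215, limma). The call of Aifm1 was lost without Dom line replicate 2 or Cast line replicate 2 or 3 (adjusted p 0.0529 to 0.0731, limma), and in 7 of 17 alternatives in all. Among these, the correction for the autosomal Cast share took its log-odds difference from 0.94 to 0.56 (adjusted p = 0.0923, limma), and the replicate block gave the highest adjusted p, 0.113.

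The 12 transcription factors and chromatin proteins had a median of 0.149 ± 0.0314 in the Dom line and 0.0912 ± 0.0244 in the Cast line, with 3 called higher in the former (Bcorl1, Elf4 and Zfp280c) and 0 lower. Stag2, a cohesin subunit, had 0.138 ± 0.0249 against 0.0978 ± 0.0113 and was not called (adjusted p = 0.0935, limma). Zfp280c, a zinc finger protein, had 0.120, 0.0986, 0.187 and 0.198 against 0.0447, 0.0434 and 0.0386 (log-odds 1.75 ± 0.30, adjusted p = 0.00483, limma). The 9 membrane transport and trafficking genes had 0.169 ± 0.0159 and 0.131 ± 0.00885, with 2 called higher in the Dom line (Zdhhc9 and Mospd1) and 1 lower (Slc9a7). Lamp2 of the lysosome membrane had 0.156 ± 0.00806 and 0.184 ± 0.0262, and Ocrl, an inositol phosphatase, 0.103 ± 0.0262 and 0.144 ± 0.0271.

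Signalling genes, cell surface genes and the noncoding or uncharacterised transcripts had medians below that of all members in each line on average. This held in every sample for the noncoding or uncharacterised transcripts, but not in Cast line replicate 3 for signalling genes (0.0870 against 0.0862) and in Cast line replicate 1 for cell surface genes (0.120 against 0.0926). The 9 signalling genes had 0.106 ± 0.00938 in the Dom line and 0.0766 ± 0.00897 in the Cast line, with Il13ra1 the 1 called. Xiap, an inhibitor of caspases, stood at 0.110 ± 0.0106 and 0.0852 ± 0.0173, and Fgf13, the longest of the 9 (523 kb), at 0.0578 ± 0.0272 and 0.0761 ± 0.0122. The 10 genes of the cell surface, synapse and heparan sulphate had 0.118 ± 0.0280 over all 10 and 0.0813 ± 0.0343 over 9, with 3 called higher in the Dom line (Xpnpep2, Hs6st2 and Syn1). Syn1 encodes the synaptic vesicle protein synapsin I and shares 4573 bases with Timp1 on the other strand. Its call (adjusted p = 0.0430, limma) was lost in 10 of 17 alternatives, among them without any of the 4 Dom line libraries or Cast line replicate 2 or 3 (0.0608 to 0.128). Chst7, which sulphates chondroitin, was the highest of this list over both lines, at 0.203 ± 0.0756 and 0.176 ± 0.0860. The 8 noncoding or uncharacterised transcripts had 0.106 ± 0.00829 and, over 7, 0.04995 ± 0.00732, with 2 called higher in the Dom line (Firre and C430049B03Rik). The annotation gives only 5 of all members as noncoding, so this list also holds protein-coding genes. One of these, 2610018G03Rik, is now annotated as the kinase gene Stk26. It had 0.0444 ± 0.0305 against 0.113 ± 0.0236 and just missed the threshold (adjusted p = 0.0505, limma).

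To weigh both strains equally, the mean log-odds of each line were averaged and turned back into a ratio. This strain-balanced ratio had a median of 0.122 over the 64 shared members. It ran from 0.0121 in Igsf1 to 0.549 in Slc25a5, and after Slc25a5 came Wdr44 with 0.353, Nkap with 0.306, Mmgt1 with 0.261, Ndufb11 with 0.260 and Rbm10 with 0.230. With 1 fragment from Xi in the Dom line and 0 in the Cast line, the Igsf1 value largely reflects the 0.01 offset. Zdhhc9 and Rbmx2, among the highest in the Dom line, stood at 0.169 and 0.183 on this scale, and Xpnpep2 at 0.0889. Gpc3 had 0.0498 and Mtap7d3 0.0395.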

How the data were processed

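The data were ChrRNA-seq of 4 iXist-ChrX-Dom and 3 iXist-ChrX-Cast samples, grouped by the labels. The authors removed rRNA reads with bowtie2 2.3.2, aligned with STAR 2.4.2a to N-masked mm10, split fragments by strain with SNPsplit and counted them over transcripts, introns included. Per the file headers featureCounts 1.5.2 counted by strand and skipped fragments that overlap more than 1 gene, which lowers overlapping genes. The deposited counts are raw, for all, Cast-assigned and Dom-assigned fragments. The deposited ratio tables hold the fraction from Xi for genes that reached 10 allelic fragments in over 80% of the study's WT samples, which need not hold in each sample used here, and a ratio of 0.1 to 0.9 before induction, and every value equalled Xi/(Xi + Xa) of the counts to within 1e-12. How replicate cultures were made is not given in the sources used here, so p-values measure the spread between these samples.

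For the 235 genes in both tables, the log-odds, log2((ratio + 0.01)/(1 - ratio + 0.01)), entered limma 3.58.1. Total and allele counts were compared with edgeR 4.0.16 in R 4.3.3 (quasi-likelihood F test, two-sided, filterByExpr and TMM on total counts). P-values were Benjamini-Hochberg adjusted over all genes tested, threshold 0.05, and folds are given as iXist-ChrX-Dom minus iXist-ChrX-Cast or Xi minus Xa. Samples with the same replicate number deviated together in total counts (correlations 0.329, 0.275 and 0.466 for numbers 1 to 3), but so did other samples of the same set: replicates 1 and 2 across numbers (0.323 and 0.384), and replicate 4 of iXist-ChrX-Dom with replicate 3 of iXist-ChrX-Cast (0.505). Number and set thus cannot be told apart, and the labels name no shared culture. The main fits hold no block, and a fit with it is given beside the results it changes. Named genes were, in each line, the 6 highest and 6 lowest mean ratios among members with at least 30 allelic fragments in every sample, up to 8 members called per direction in ratios and in total counts, the 3 largest and 3 smallest falls of each allele, the highest and lowest of each list, Firre, and named neighbours within 10 kb. Araf, Gpc4, Slc25a14, Upf3b, Thoc2, Stag2, Lamp2, Ocrl, Xiap, Fgf13, Syn1 and Mospd1 were named outside this rule, after their values were seen. The values of 2 members are not reported here, though every count and median includes them. Members and lists were chosen with earlier results of these data known. DESeq2 1.42.0 served as an alternative, tables were handled in Python 3.11.15 (pandas 2.3.3), and the fits were tested on simulated data. Names and promoter windows came from RefSeq (GRCm38.p6), gene types from GENCODE. Alternatives added after the data were seen were a covariate for sample set (a naming scheme that sets replicates 1 and 2 of each line apart from the others), replicates 1 and 2 only, and a fit without the libraries described as d1.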

Additional observations from a re-analysis of the deposited data

Results flagged for a closer look

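In 134 groups of 4 iXist-ChrX-Dom samples, 6 held a sample far from the other 3 by Dixon's criterion, which chance does in about 1 in 20 groups, and 5 of them are given here. Mcts1 had a ratio of 0.158 in replicate 1 and 0 in the others, Smarca1 0.0526 in replicate 1 and 0 in the others, and Igsf1 0.0435 in replicate 1 and 0 in the others. These 3 rest on 1 to 3 fragments from Xi. Hs6st2 had a ratio of 0.330 in replicate 4 against 0.157 to 0.176. The total level of Xpnpep2 was 7.36 CPM in replicate 1 against 3.36 to 3.78 CPM.

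Slc25a5 stood out because Xi lay below Xa in all 4 iXist-ChrX-Dom samples and above it in all 3 iXist-ChrX-Cast samples, with a log-odds difference of -2.14 (adjusted p = 0.00233, limma). Line and strain of Xi cannot be told apart in it.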

How the results depend on the processing

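The ratio differed between the lines in 16 members (25%, against 33.2% of all shared genes). With replicates 1 and 2 only it differed in 10 (15.6%, against 27.7%). Under the other alternatives the count was 12 to 23 (18.8% to 35.9%, against 23% to 45.1%). It was 14 with the replicate block, where same-numbered samples did not deviate together in ratios (correlations -0.123, -0.0956 and -0.111). For total levels, 3 members were called, and 0 to 13 when 1 library was left out (0.117% to 7.84% of all genes). The count was 14 with the replicate block (11.8% of all genes) and 8 with DESeq2 (7.2%). It was 5 with no expression filter (7.46%, against 1.9% of all genes) and 21 with sample set as covariate (31.3%, against 15.8%). With replicates 1 and 2 only it was 15 (22.4%, against 11%), and without the libraries described as d1 it was 0 (against 0.378%). Where 0 were called, 11 to 18 members had an unadjusted p under 0.05 (edgeR). The Dom allele was called in 63 to 66 members (against 3.18% to 9.95% of all genes) and the Cast allele in 64 to 66 (against 8.85% to 18.9%). The Dom allele of Slc25a5 (main log2 value -0.06) changed sign, to 0.013 with the replicate block, 0.16 with replicates 1 and 2 only and 0.084 without the d1 libraries, and ran from -0.30 to 0.15 when 1 library was left out, with no call in any of these. In iXist-ChrX-Dom the median ratio was 0.119 from pooled fragments, against 0.145 in the main summary. In iXist-ChrX-Cast the mean over members was 0.125, against a median of 0.0970. The pooled median and the mean are different measures and do not compare the lines. The cause of these changes was not tested. Few allelic fragments limit 11 members of the Dom line and 10 of the Cast line, which had under 30 in a sample.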
